A study of Mus musculus with 12 samples.

Results

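Fst, the gene that encodes follistatin, was followed in primary mouse granulosa cells across all 12 arrays of the study. It is 1 of 8127 mouse genes that could be named on the array, and it has 1 probe. A probe was taken for Fst because the number in its identifier, 14313, is the Entrez gene number of Fst. Fst lies on chromosome 13 in the RefSeq annotation of assembly GRCm38.p6, which lists 4 transcripts for it, 3 of them curated. Which of these the probe reads was not analysed here.

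The 3 treatments were applied for 24 h to granulosa cells cultured from immature mice aged 21 to 23 days: activin A, activin A together with follistatin, or PBS as the vehicle. Each culture came from a pool of 14 to 20 ovaries, no mouse strain or allele is named, and doses are not given in the sources used here. Each treatment has 4 numbered arrays, and the arrays of the same number were taken as 1 experiment. From each sample 100 ng of RNA was amplified before hybridization to Illumina Sentrix Mouse-6 arrays. The arrays read the messenger RNA of the cells and not the follistatin protein that was added to the medium.

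Activin A is a dimer of inhibin beta subunits and belongs to the transforming growth factor beta family. It signals through a type II and a type I serine-threonine kinase receptor to the transcription factors Smad2 and Smad3, which act together with Smad4. Follistatin is a secreted glycoprotein that wraps around activin and keeps it from its receptors, and granulosa cells of growing follicles are a well-known source of it. Transcription of Fst in response to activin is a textbook example of a pathway that produces its own inhibitor.

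Signals are on a log2-like scale, deposited after normalization between arrays and without visible subtraction of background, and all values of the table lie between 6.75 and 16.2. The highest mean signal of a control spot, 7.35, was taken as the background level. Differences are therefore log2 differences on this scale, folds read it as plain log2, and differences that end close to 7.35 are understated. In cultures measured in bulk, fewer cells of a type and less RNA per cell cannot be told apart.

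The Fst signal was high with activin, intermediate with PBS and lowest when follistatin protein was added together with activin. With activin it read 13.0 in experiment 1, 12.9 in experiment 2, 12.7 in experiment 3 and 13.1 in experiment 4. With activin plus follistatin it read 8.42, 9.20, 8.67 and 8.50 in experiments 1 to 4. With PBS it read 9.96, 10.7, 10.5 and 10.4 in the same order. No value of one treatment reached into the range of another. Of the 8127 named genes, 10.3% likewise did not overlap between activin and PBS, 5.43% between activin plus follistatin and PBS and 15.9% between activin and activin plus follistatin, in either direction. Every array of Fst was above the background level, by 1.07 at the least, which was in experiment 1 with activin plus follistatin.

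**Figure D1:**
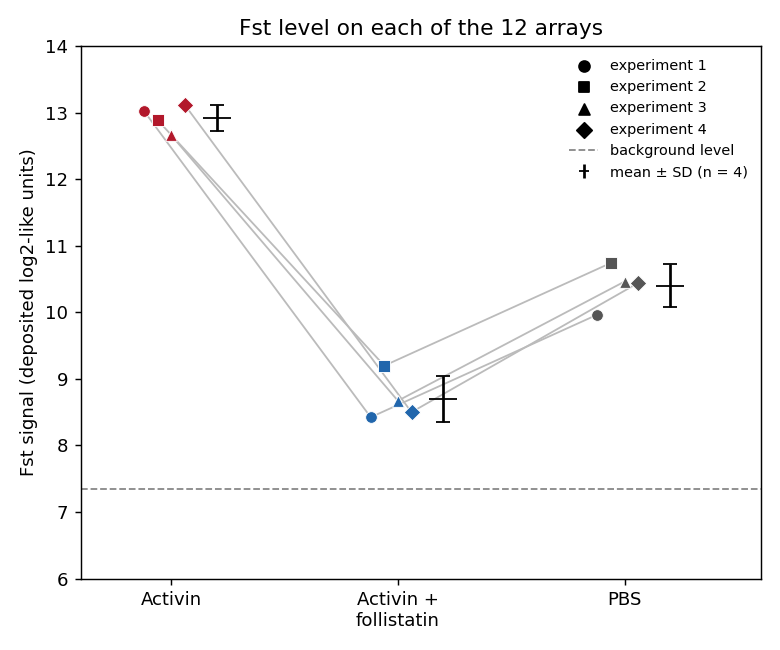
Fst signal in deposited log2-like units (vertical axis) on the 12 arrays, by treatment (horizontal axis). Symbols are single arrays, grey lines join the arrays of 1 experiment, black bars are the mean ± SD of 4 arrays, and the dashed line is the background level of 7.35. Activin arrays lie between 12.7 and 13.1, activin plus follistatin arrays between 8.42 and 9.20, and PBS arrays between 9.96 and 10.7.

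The group means were 12.9 ± 0.198 with activin, 8.70 ± 0.349 with activin plus follistatin and 10.4 ± 0.322 with PBS (SD, n = 4 each). The spread among the 4 cultures was thus smallest at the highest level. An empty interval of 1.92 separated the lowest activin array from the highest PBS array. Between the highest array with activin plus follistatin and the lowest PBS array the interval was 0.767, and between the lowest activin array and the highest one with activin plus follistatin it was 3.46.

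The comparison of activin with PBS asks how far added activin moves the transcript of its own antagonist. Fst was higher with activin by 2.52 on the log2 scale, with a 95% interval of 2.11 to 2.93, which is 5.72-fold with an interval of 4.31 to 7.60 (adjusted p = 3.13e-05, limma with Benjamini-Hochberg adjustment over all probes). In the same comparison 2.91% of the 46084 probes tested and 5% of the named genes were called at an adjusted p below 0.05, or 10.6% of the named genes with the experiment as a block. The rise was seen in 4 of 4 experiments. It was 3.06 in experiment 1, 2.14 in experiment 2, 2.20 in experiment 3 and 2.67 in experiment 4.

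Setting the combined treatment against PBS asks whether the antagonist returns Fst to the vehicle level or moves it past that level. Fst was lower than with PBS by 3.26-fold, with an interval of 2.45 to 4.33, a log2 difference of -1.70 with an interval of -2.11 to -1.29 (limma, adjusted p = 0.00280). Here 0.178% of the probes tested and 0.258% of the named genes were called, 0.148% of the named genes lower and 0.111% higher, or 2.17% in all with the block. The differences were -1.54 in experiment 1, -1.54 in experiment 2, -1.79 in experiment 3 and -1.94 in experiment 4, so that their SD over experiments was 0.196, against 0.431 for the rise with activin. The call was kept without any 1 array, and it was lost without the whole of experiment 3 (adjusted p = 0.0884, limma) or of experiment 4 (adjusted p = 0.0549, limma), while the log2 difference stayed at -1.68 and -1.62. Both comparisons use the same 4 PBS arrays, so their errors are not independent. Set side by side within each experiment, the rise with activin was larger than the fall with activin plus follistatin in 4 of 4 experiments, a description that was not tested.

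Activin against activin plus follistatin compares cultures that both received activin and differ in whether its antagonist was present. Fst was 18.6-fold higher with activin alone, with an interval of 14.0 to 24.8, a log2 difference of 4.22 with an interval of 3.81 to 4.63 (limma, adjusted p = 2.08e-07), where 7.15% of the probes tested and 11.9% of the named genes were called, 5.5% of them higher, or 18.9% in all with the block. The differences were 4.60 in experiment 1, 3.69 in experiment 2, 3.99 in experiment 3 and 4.61 in experiment 4. Experiments 1 and 4 stood above experiments 2 and 3 here and in the rise over PBS.

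**Figure D2:**
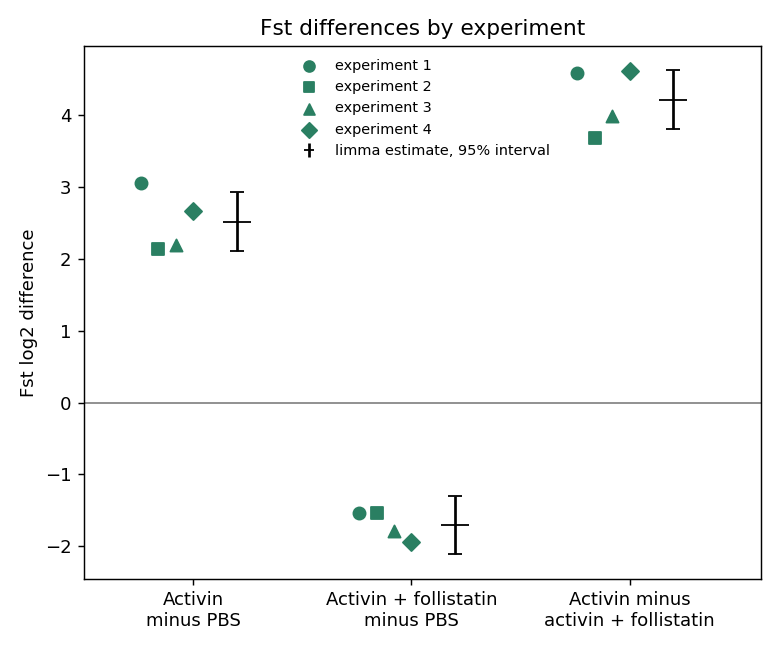
Log2 difference of Fst (vertical axis) for the 3 comparisons (horizontal axis). Green symbols are the differences within each of the 4 experiments and black bars are the limma estimate with its 95% interval. All experiments lie on 1 side of 0 in each comparison, from 2.14 to 3.06 for activin minus PBS, from -1.94 to -1.54 for activin plus follistatin minus PBS, and from 3.69 to 4.61 for activin minus activin plus follistatin.

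Tests that use no other probe were limited by the number of arrays. An exact permutation test over the 70 regroupings of 4 against 4 arrays gave a two-sided p of 0.0286 in each of the 3 comparisons, which is the smallest it can give. An exact two-sided sign-flip test over the 4 experiments cannot reach 0.05, and it gave its smallest possible p in each comparison.

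Treatment accounted for 97.9% of the sum of squares of Fst over the 12 arrays, experiment for 0.971% and the remainder for 1.18%. The SE of each difference was 0.19 without the experiment in the model and 0.15 with the experiment as a block, and Fst was called in all 3 comparisons either way. Relative to the mean of its treatment, experiment 2 was higher with activin plus follistatin (0.50) and with PBS (0.34) and near the mean with activin (-0.035). Experiment 1 was lower with activin plus follistatin (-0.27) and with PBS (-0.44) and slightly higher with activin (0.10). The order of the experiments with activin therefore differed from their order in the other treatments.

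Fst varied more between replicate cultures than most named genes. Its pooled SD within treatments was 0.297, against a median of 0.132 over the 3857 named genes with a mean above background, and 90.8% of them had a smaller one. Among the 8127 named genes it ranked first by log2 difference for the rise with activin over PBS, for the fall with activin plus follistatin below PBS and for activin over activin plus follistatin, and it ranked first in all 24 alternative settings too. Over all probes, most of which have no gene name here, its ranks were 8, 10 and 5 in that order. By the ratio of difference to moderated SE it ranked 7, 5 and 3 among named genes.

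Genes of the activin pathway were then read by role. No inhibin or activin subunit gene (0 of 5 listed) had a named probe, so the ligand's own transcripts are not analysed here. Of 10 listed receptors and coreceptors, 5 had a named probe and none was called in any comparison by limma without the block, while 1 had an unadjusted p below 0.05 between activin and PBS and 0 in the other comparisons. Of all named genes 5%, 0.258% and 11.9% were called for activin against PBS, the combined treatment against PBS and activin against the combined treatment, so that a count of 0 among so few genes says little about receptors. Acvr1, a type I receptor, differed by 0.09 ± 0.08 (SE) between activin and PBS. Tgfbr3, or betaglycan, a coreceptor that strengthens the binding of inhibin, differed by -0.10 ± 0.38, with a 95% interval of -0.93 to 0.72, so that a moderate change in either direction could not be seen. Acvr1b, the usual type I receptor of activin, and Acvr2a, a type II receptor, were at or below the background level, and Acvr1b was called between activin and the combined treatment with the block alone, at 0.15 (adjusted p = 0.0413, limma).

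Of 15 listed Smad proteins and partners, 3 had a named probe and none was called by limma without the block, nor had any an unadjusted p below 0.05. At the same shares of 5%, 0.258% and 11.9% over all named genes, this count says little about Smads. Smad4, the shared partner of the receptor-activated Smads, read 12.4 on average and differed by -0.21 ± 0.16 between activin and PBS. With the experiment as a block this difference was called, as was that of -0.24 between activin and activin plus follistatin (adjusted p = 0.0457 and 0.0151, limma). Ski, a corepressor of Smads, was below background. Smurf1, a ubiquitin ligase that acts on Smads, differed by -0.01 ± 0.05.

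Among 14 other ligands of the family, 6 had a named probe and 2 of these were higher with activin than with PBS, where 2.85% of all named genes were called higher and 2.14% lower. Gdf15, a distant member of the family that responds to cell stress, averaged 7.87 with activin and 7.29 with PBS, a difference of 0.58 ± 0.08 (limma, adjusted p = 0.00193). Bmp6, a bone morphogenetic protein made in the ovary by oocytes and granulosa cells, averaged 7.70 with activin and 7.24 with PBS, a difference of 0.46 ± 0.10 (limma, adjusted p = 0.0299). Both were at the background level without activin, so these rises are understated. The call of Bmp6 was lost without any 1 of 6 arrays, with an adjusted p of up to 0.0918 (limma). It was also lost without experiment 1, 2 or 3 (adjusted p up to 0.237, limma). With only both groups in the fit it was lost too (adjusted p = 0.103, limma). With activin plus follistatin neither differed from PBS by a called amount, Gdf15 at 0.01 ± 0.08 and Bmp6 at -0.15 ± 0.10. Fst was called below PBS there, and whether the genes differ in this was not tested.

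Follistatin is built from repeated follistatin domains, which also occur in a set of matrix and secreted proteins. Apart from Fst, 6 of the listed genes of this kind had a named probe, 2 of them above background, and none was called against PBS in either comparison by limma, with 0 for activin and 1 for the combined treatment at an unadjusted p below 0.05. Over all named genes 5% and 0.258% were called in these comparisons, so 0 of 6 is near the background. Agrn, a heparan sulfate proteoglycan of basement membranes, stood at -0.37 ± 0.22 relative to PBS when activin was given alone and at -0.02 ± 0.22 when follistatin was added. Spock2, a matrix proteoglycan, was lower with activin than with activin plus follistatin by 0.40 on the log2 scale (SE 0.09, limma adjusted p = 0.0220), at 7.21 against 7.61, which is at background with activin. It was 1 of the 6 genes, where 6.42% of all named genes were lower. That call was lost without the activin array of experiment 1 (adjusted p = 0.0599, limma) or of experiment 2 (adjusted p = 0.0613, limma). It was also lost without the whole of experiment 1, 2 or 3 (adjusted p up to 0.150, limma). The median difference between activin and PBS over the 6 genes was -0.05, against 0.002 over all named genes.

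Secreted proteins that bind ligands of the family gave 9 named genes besides Fst, 5 of them above background. None was called between activin and PBS or between activin plus follistatin and PBS by limma, with 2 and 0 of them at an unadjusted p below 0.05, and 2 were lower with activin than with activin plus follistatin, where 6.42% of all named genes were lower. These were Dcn, or decorin, a matrix proteoglycan that binds transforming growth factor beta, with a difference of -2.81 ± 0.54 (limma, adjusted p = 0.00662), and Ltbp1, which stores latent transforming growth factor beta in the matrix, with -1.43 ± 0.27 (limma, adjusted p = 0.00653). The call of Dcn was lost without experiment 1 (adjusted p = 0.0543, limma) and that of Ltbp1 without experiment 2 (adjusted p = 0.0787, limma). Against PBS, Dcn differed by -1.77 ± 0.54 with activin and 1.05 ± 0.54 with activin plus follistatin, and Ltbp1 by -0.86 ± 0.27 and 0.57 ± 0.27. With the experiment as a block Ltbp1 was called in both of these comparisons (adjusted p = 3.07e-05 and 0.00230, limma) and Dcn in the one with activin (adjusted p = 0.00668, limma). Ltbp3, of the same family as Ltbp1, was also called with the block, lower with activin than with the combined treatment (-0.27, adjusted p = 0.0147, limma). Dcn has a second, dimmer probe with differences of the same signs, -0.44 with activin and 0.51 with activin plus follistatin against PBS. Twsg1, a secreted modulator of bone morphogenetic proteins, read 12.2 on average and differed by -0.02 ± 0.16 with activin. Chrdl1, Dand5, Lefty1 and Lefty2, which are other antagonists of the family, were below background.

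**Figure D3:**
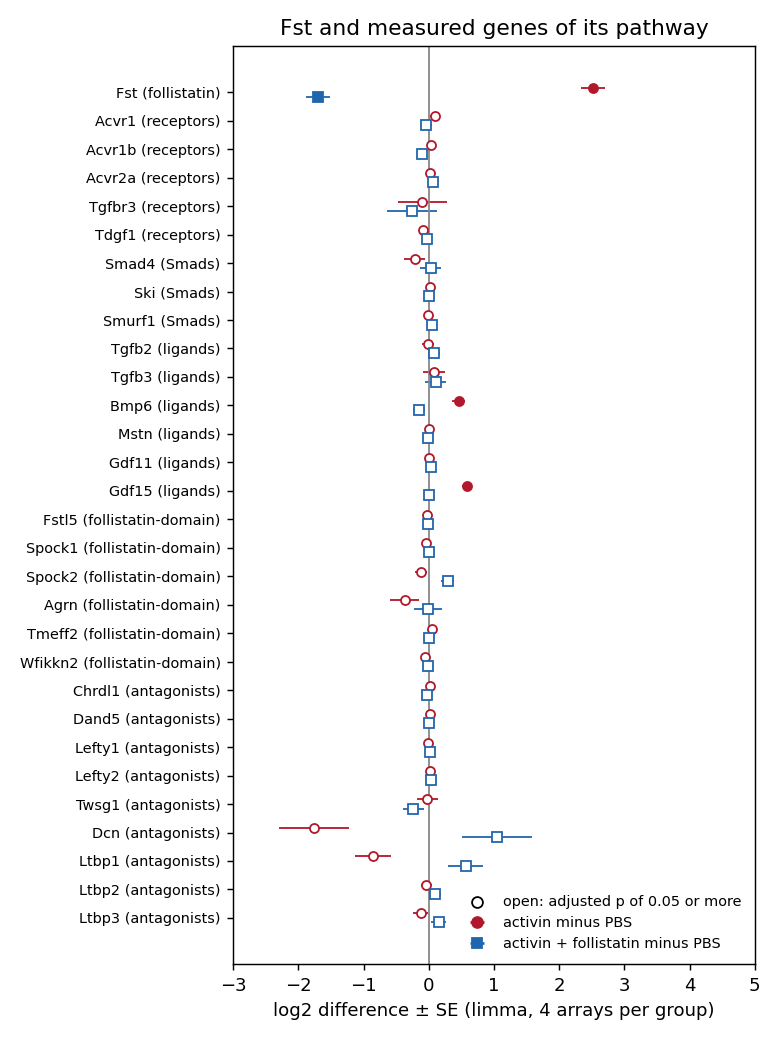
Log2 difference ± SE (horizontal axis) of Fst and of each gene with a named probe from the receptor, Smad, ligand, follistatin-domain and antagonist lists (vertical axis). Red circles are activin minus PBS, blue squares are activin plus follistatin minus PBS, and open symbols did not pass an adjusted p of 0.05 without the block. Fst lies at 2.52 and -1.70, Gdf15 and Bmp6 are the other filled symbols, and Dcn and Ltbp1 are open and lie on the opposite sides of 0 from Fst.

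Of 14 granulosa markers 3 were measured, and all 3 were above background in their mean over the arrays. Amhr2, the receptor of anti-Mullerian hormone, averaged 12.7 over the arrays. Wt1, a transcription factor of granulosa and epithelial cells, averaged 9.38, and Gata4 averaged 7.71, the closest of the 3 to background. None of the 3 was called in any comparison by limma without the block. Wt1 alone had an unadjusted p below 0.05, between activin and activin plus follistatin. With the block Wt1 was lower with activin than with PBS (-0.38, adjusted p = 0.0196, limma) and than with activin plus follistatin (-0.73, adjusted p = 2.10e-04, limma). Other defining granulosa genes on the list, among them Fshr, Foxl2 and Cyp19a1, have no named probe here. Of 8 stromal markers 5 were measured, and the mean of their log2 levels ran from 7.54 to 7.67 with activin, from 8.15 to 8.81 with activin plus follistatin and from 7.85 to 8.54 with PBS, lowest where Fst was highest. The ranges of the other 2 treatments overlapped, but within experiments the mean was higher with activin plus follistatin than with PBS in 4 of 4. The order was thus the reverse of that of Fst in each experiment. This was not particular to the stromal list. Within experiments the granulosa list mean differed by -0.175 to -0.041 between activin and PBS. Between activin plus follistatin and PBS it differed by 0.164 to 0.372. The endothelial list had the same order in 4 of 4 experiments. Of the granulosa genes, Wt1 carried the fall with activin against PBS, at -0.38 ± 0.22. Gata4 differed there by -0.03 ± 0.10, and Amhr2 went the other way, at 0.14 ± 0.21. In the stromal list Col3a1 was called lower with activin than with PBS, at -0.73 ± 0.12 (limma, adjusted p = 0.00654, or 0.0835 without experiment 1). Dcn is also a member of the stromal list and had its largest differences, -1.77 with activin and 1.05 with activin plus follistatin against PBS. Acta2 differed by -0.25 ± 0.28 and 0.008 ± 0.28 in the same order. Col1a1, above background, did not follow the order of the list mean, at -0.02 ± 0.07 and -0.08 ± 0.07. Col1a2 was below background. The part of the stromal and granulosa markers in the Fst result was not tested. The 2 measured of 5 endothelial markers averaged 7.17 to 7.27 with activin, 7.54 to 7.73 with activin plus follistatin and 7.26 to 7.50 with PBS, and Pecam1 was at background. Robo4, a receptor of endothelial cells, carried the difference, at 7.11 with activin, 7.92 with activin plus follistatin and 7.40 with PBS on average. It was called lower with activin than with the combined treatment (-0.80, adjusted p = 2.93e-04, limma), and with the block also between activin and PBS (adjusted p = 0.0409, limma) and between the combined treatment and PBS (adjusted p = 0.00775, limma). Their part in the Fst result was not tested either. All 3 measured surface epithelium markers, the 1 erythroid marker and 3 of the 4 macrophage markers were at or below background in their mean over the arrays. The same held for 3 of the 5 theca markers measured, among them Lhcgr, the luteinizing hormone receptor, and the theca list averaged 7.28 to 7.36 with activin, 7.27 to 7.31 with activin plus follistatin and 7.23 to 7.26 with PBS. Gli2, a transcription factor of hedgehog signalling on that list, was called with the block alone, higher with activin than with PBS (0.20, adjusted p = 0.0443, limma) and than with the combined treatment (0.23, adjusted p = 0.0134, limma).

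The oocyte marker Nlrp5 set experiment 1 apart. It read 8.13 with activin, 8.54 with activin plus follistatin and 7.91 with PBS there, and no more than 7.19 on any other array. Experiment 1 is also the one with the lowest Fst level with PBS, a value that enters its rise with activin, and the part of oocyte RNA in the Fst result was not tested. Without experiment 1 the rise of Fst with activin was 2.34 ± 0.18 (SE, limma adjusted p = 7.86e-04) and its difference with activin plus follistatin was -1.76 ± 0.18 (limma, adjusted p = 0.0196). The macrophage marker Lyz2 was highest in experiment 4, at 7.62 with activin, 7.94 with activin plus follistatin and 7.55 with PBS.

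The profile of Fst over the 12 arrays was set beside those of the other 3856 named genes with a mean above background, with Pearson's r as an index of likeness. The arrays form 3 treatment groups, so r mainly measures whether a gene follows the order activin, PBS, activin plus follistatin with little spread. It is given without a test, because the genes were picked for it. In all, 112 genes had r above 0.9 and 119 had r below -0.9.

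The 8 most similar genes had r of 0.977 to 0.984. They were Hsd11b2, which inactivates glucocorticoids, Nexmif, a nuclear protein known from neurons, Igf1, a growth factor of the follicle, Chst8, a sulfotransferase of glycoprotein hormones, Tle1, a transcriptional corepressor, Rftn1, a lipid raft protein, Txnl1, a thioredoxin-like protein, and Cers5, a ceramide synthase. Their differences between activin and PBS ran from 0.37 for Nexmif to 2.02 for Chst8, below that of Fst. Between activin plus follistatin and PBS they ran from -1.05 for Chst8 to -0.28 for Nexmif. All 8 were called for activin against PBS, and 5 of them, Hsd11b2, Igf1, Chst8, Rftn1 and Cers5, for activin plus follistatin against PBS, where 5% and 0.258% of all named genes were called. Since r selects genes that follow the treatments, these calls describe the genes and test nothing. With the block Tle1 (adjusted p = 0.00468, limma) and Txnl1 (adjusted p = 0.0316, limma) were called in the second comparison too. Without 1 whole experiment each of these 5 calls was lost at least once, for Hsd11b2 without experiment 2 (adjusted p = 0.0522, limma), for Cers5 without experiment 3 (adjusted p = 0.0532, limma) and for Chst8 without experiment 1, 3 or 4 (adjusted p up to 0.0701, limma). The call against PBS with activin plus follistatin was lost for Igf1 without any 1 of 8 arrays (adjusted p up to 0.163, limma). It was also lost for Igf1 without any 1 of the 4 experiments (adjusted p up to 0.231, limma). For Rftn1 it was lost without any 1 of 3 arrays (adjusted p up to 0.0581, limma). Without experiment 1, 2 or 3 it was lost for Rftn1 too (adjusted p up to 0.196, limma).

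Cers5 was the 1 gene of the 8 that Spearman's rho also placed among the 8 most similar, so the order within the similar genes rests on small differences. None of the 4 genes most opposite by r was among the 4 most opposite by rho (0 of 4). The 4 most opposite profiles were those of Pcdh9, a protocadherin (r = -0.992), Gstm1, a glutathione transferase (r = -0.990), Celf2, an RNA-binding splicing regulator (r = -0.985), and Cntnap2, a neurexin-related adhesion protein (r = -0.981). Gstm1 had the widest range of these, with differences of -2.74 ± 0.23 for activin and 1.65 ± 0.23 for activin plus follistatin against PBS. The second call of Gstm1 was lost without any 1 of 4 arrays (adjusted p up to 0.0642, limma). It was also lost without experiment 1, 3 or 4 (adjusted p up to 0.257, limma). With only both groups in the fit it was lost too (adjusted p = 0.0510, limma). Gstm1 has a second probe that lies below background, so it gives no check. The second probes of Celf2 and Cntnap2 differed from PBS with the same signs as the first. With activin they stood at -0.63 and -0.89, and with activin plus follistatin at 0.44 and 0.43. Pcdh9 averaged 7.16 with activin, below background, so its fall with activin is understated.

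**Figure D4:**
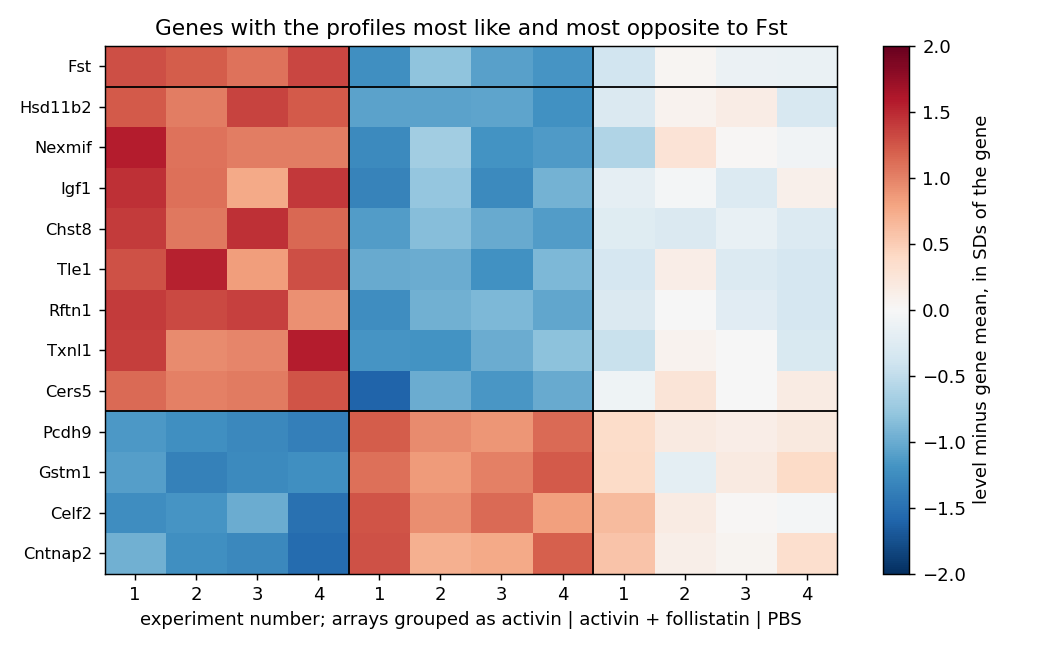
Level of Fst, of the 8 genes with the highest r and of the 4 with the lowest (rows) on the 12 arrays (columns, numbered by experiment within activin, activin plus follistatin and PBS). Colour is the level minus the mean of the gene, in SDs of the gene over the 12 arrays. The 8 similar genes are high with activin and low with activin plus follistatin in all 4 experiments, as Fst is, and the 4 opposite genes show the reverse.

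After the mean of each treatment was removed, other genes came closest to Fst, which shows whose level moved with that of Fst between replicate cultures. These were Pa2g4, a proliferation-associated RNA-binding protein (r = 0.872), Rabgap1l, a Rab GTPase-activating protein (r = 0.858), Pdlim1, an actin-associated adaptor (r = 0.852), Tfdp1, the partner of E2F factors in the cell cycle (r = 0.846), and Krr1, a ribosome assembly factor (r = 0.828). These are again descriptions over 12 arrays, picked from 3856 genes. Krr1 averaged 7.37 to 7.41 over the treatments, close to the background level of 7.35, so its r rests on values near the floor. Rabgap1l was also dim, at 7.45 to 7.76, and its second probe lies below background. Pdlim1 differed by 0.46 ± 0.24 between activin and PBS and by -1.38 ± 0.24 between activin plus follistatin and PBS, where it was called with the block (adjusted p = 0.00439, limma) and not without it (adjusted p = 0.0579, limma). Of the 8 genes most similar over all arrays, Nexmif, at 0.822, also followed Fst closely within treatments, while Chst8, at 0.169, and Rftn1, at 0.216, did not.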

How the data were processed

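RNA of 12 cultures was measured, 4 for each of 3 treatments. The deposited table holds log2-like signals of 46116 probes, and whether the authors took a plain log2 or a variance-stabilizing transform is not given in the sources used here. The submitters' processing notes name lumi 1.2.0, with no role. Probes were named by reading the number in their identifiers as an Entrez gene number, which fits the RefSeq gene table for 82.6% of the numbers and for 46.0% of them after 1 is added. For genes with several probes the brightest was used. After 32 control spots were left out, limma 3.58.1 in R 4.3.3 was fitted to 46084 probes with 3 group means and Benjamini-Hochberg adjustment, with a threshold of 0.05, after it was tested on simulated data. The members and gene lists were chosen with earlier results of these data known. Named genes were Fst, all measured members of the lists, and the 8 most similar, 4 most opposite and 5 most similar genes after treatment means were removed. The labels number the arrays within each treatment, and arrays of the same number were taken as 1 experiment. Residuals of arrays with the same number correlated at 0.335 to 0.805 over 12 pairs, against -0.635 to 0.407 for other pairs of different treatments. These used probes above background. The residuals of a treatment sum to 0, so a positive correlation of same-number arrays goes with lower values for the other pairs. With the experiment as a random block, the correlation within experiments over all probes tested was 0.079. No 2 arrays were duplicates, with correlations of 0.967 to 0.994. The number of arrays limits the precision. Alternatives were the experiment as a block, other scaling, weights, filters and fits, and leaving out arrays or experiments.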

Additional observations from a re-analysis of the deposited data

Results flagged for a closer look

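Of 147 sets of 4 values tested for a single value far from the other three, 12 stood out, where chance gives about 1 in 20, and none of the 6 Fst sets did, the levels of the 3 treatments and the 3 differences by experiment. Nlrp5, an oocyte gene, was high in experiment 1 with activin (8.13, others 7.05 to 7.10), with activin plus follistatin (8.54, others no higher than 7.19) and with PBS (7.91, others 7.08 to 7.09). Lyz2, a macrophage gene, was high in experiment 4 with activin plus follistatin (7.94, others 7.20 to 7.22) and with PBS (7.55, others 7.27 to 7.32). Their part in the Fst result was not tested.

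Among genes with a profile like that of Fst, Hsd11b2 was low in experiment 4 with activin plus follistatin (7.15, others 7.27 to 7.28), at the background level. Nexmif was high in experiment 1 with activin (8.37, others 8.21 to 8.23), Rftn1 was low in experiment 4 with activin (8.84, others 9.13 to 9.18), and Tle1 was high in experiment 2 with PBS (10.5, others 10.2). With activin plus follistatin, Ltbp2 was high in experiment 4 (7.73, others 7.34 to 7.39), Itga1 was low in experiment 1 (7.11, others 7.20 to 7.22), and Ndufs4 was low in experiment 1 (12.7, others 13.0 to 13.1).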

How the results depend on the processing

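Fst kept its direction in all 24 alternatives of each comparison. It was called in all of them for activin against PBS (2.34 to 2.64) and for activin against activin plus follistatin (4.09 to 4.40). For activin plus follistatin against PBS it was lost without experiment 3 (-1.68, adjusted p = 0.0884, limma) or experiment 4 (-1.62, adjusted p = 0.0549, limma), which leaves 3 arrays a group, and leaving out 1 array or experiment gave -1.87 to -1.59. The replicate block, with the experiment number as the pairing, changed no call of Fst.

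Counts of called probes moved more. For activin against PBS, 1342 probes became 2820 with the block, 888 to 1356 without 1 array (888 without PBS array 3) and 625 to 994 without 1 experiment (680, 733 and 625 without experiments 1, 2 and 3). For activin plus follistatin against PBS, 82 became 557 with the block, 132 with a random block, 130 with probes above background and 127 with only both groups in the fit. There the count was 47 to 107 without 1 array (50 and 47 without activin plus follistatin arrays 1 and 3, 47 and 48 without PBS arrays 2 and 3) and 24 to 54 without 1 experiment (41, 29, 24 and 54 without experiments 1 to 4). For activin against activin plus follistatin, 3296 became 5087 with the block, 2652 to 3268 without 1 array and 2091 to 2642 without 1 experiment (2091 without experiment 2). The cause was not tested.

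The other 47 named genes gave 141 results and 3378 alternative values, of which 63 lost a call, 66 gained one and 0 reversed. An alternative with other Fst probes was not run, since Fst has 1 probe. Signals close to background limit what can be seen for dim genes.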

Other observations

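Genes next to Fst on chromosome 13 were read after the values had been seen, so they are given as values only. Of the 8 protein-coding genes on each side, 4 have a named probe. Ndufs4, a subunit of mitochondrial complex I and the nearest gene on one side, differed by 0.67 ± 0.17 between activin and PBS (SE, limma adjusted p = 0.0645, or 0.00541 with the experiment as a block) and by 0.85 ± 0.17 between activin and activin plus follistatin (limma, adjusted p = 0.00853), the second of which was lost without experiment 3 (adjusted p = 0.0787, limma). Pelo, a ribosome rescue factor, differed by 0.35 ± 0.08 between activin and PBS (limma, adjusted p = 0.0302) and by 0.62 ± 0.08 between activin and activin plus follistatin (limma, adjusted p = 3.08e-04). The first of these calls was lost without any 1 of 6 arrays (adjusted p up to 0.0955, limma). It was also lost without any 1 of the 4 experiments (adjusted p up to 0.144, limma) and in 2 other settings (adjusted p up to 0.0746, limma). Emb, a cell adhesion protein, differed by 0.50 ± 0.49 between activin and PBS and by 1.02 ± 0.49 between activin and activin plus follistatin (limma, adjusted p = 0.351, or 5.24e-04 with the block), and Itga1, an integrin, was below background. Fst, at 2.52, differed most of the 5 genes measured in this stretch.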
